A study of Rattus norvegicus with 5 samples.

Results

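The 10 genes described here are chemokine and NF-kB target genes: the ligands Cxcl1, Ccl20 and Ccl2, the receptor Ccr7, the NF-kB subunit gene Nfkb1 and the inhibitor gene Nfkbia, the adhesion molecule genes Vcam1 and Icam1, the prostaglandin enzyme gene Ptgs2 and the stress cytokine gene Gdf15. They were taken by symbol from the platform annotation, which gave each of them 1 probe, so 10 of the 22517 probes on the array are members. Chemokines are small secreted proteins that draw white blood cells along a gradient through receptors in the cell membrane. Many of their genes are transcribed through NF-kB, a family of dimeric transcription factors held in the cytoplasm by inhibitors such as the product of Nfkbia, which is itself an NF-kB target. The same factors drive adhesion molecules on endothelium and Ptgs2.

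Parotid glands, which secrete amylase-rich saliva, came from 5 male Sprague-Dawley rats aged 2 to 3 months. Of these, 2 rats received saline (the controls). The others received isoproterenol, a beta-adrenergic agonist, into the peritoneum, and 1 rat each was killed at 10, 30 and 60 min. The labels state 20 mg of isoproterenol per g of body weight, a unit that is in doubt. No source used here states how long after saline the controls were killed, so isoproterenol, handling and differences between rats cannot be told apart.

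Each rat stands for 1 Illumina array with a linear intensity and a detection p-value per probe. A probe was called above background at a detection p under 0.01. That held for 9095 to 9459 probes per array, and the dimmest such probe had an intensity of 81.5 to 83.7. All 6 measured acinar markers, among them the amylase gene Amy1 and the water channel gene Aqp5, were above background on all 5 arrays. The reference genes Gapdh and Actb had log2 signals of 10.38 and 12.94 at 60 min, against 12.12 and 12.77 in control 1 and 11.21 and 12.40 in control 2. None of 12 neutrophil markers was above background on any array. Skeletal muscle markers set arrays apart: their summed intensity over 7 genes was 42544 in control 1 and 1179 in control 2, and 1105, 44105 and 4968 at 10, 30 and 60 min. Differences at 60 min against each control alone are therefore given for the other genes than Ptgs2, which was not above background on those arrays.

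In 8 of the genes a RefSeq promoter window was on hand (assembly GRCr8), and it shows what the genes share before any expression value is read. The kappaB consensus, the NF-kB binding motif, was found on either strand in the 250 bases before the start of 4 of these 8 genes, against 3.54% of 33469 rat promoters. The genes were picked as NF-kB targets, so this excess is no independent finding. The last 120 bases before the start are printed 5′ to 3′ on the coding strand for the 4 genes with a match, with motif letters in capitals.
Cxcl1 (chr14:17479322-17479441, minus strand): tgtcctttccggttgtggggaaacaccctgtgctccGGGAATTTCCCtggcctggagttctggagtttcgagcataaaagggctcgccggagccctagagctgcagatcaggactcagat
Ccl20 (chr9:91837039-91837158, plus strand): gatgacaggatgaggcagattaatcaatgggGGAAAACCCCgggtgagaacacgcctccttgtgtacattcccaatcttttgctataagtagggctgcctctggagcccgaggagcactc
Nfkbia (chr6:78597073-78597192, minus strand): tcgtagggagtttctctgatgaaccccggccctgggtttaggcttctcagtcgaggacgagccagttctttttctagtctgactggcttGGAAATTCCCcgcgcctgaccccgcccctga
Vcam1 (chr2:206742784-206742903, minus strand): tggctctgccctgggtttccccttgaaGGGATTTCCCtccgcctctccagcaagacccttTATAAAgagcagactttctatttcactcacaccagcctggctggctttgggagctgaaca

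The first capital run in each line is the kappaB match, and the second one in Vcam1 is the TATA box motif TATAAA, searched on the coding strand. In Cxcl1 the run holds 2 overlapping matches. The matches begin 84 bases before the start in Cxcl1, 89 in Ccl20, 31 in Nfkbia and 93 in Vcam1. Counting the 50 bases after the start as well, Nfkb1 became the fifth gene with a match. Neither the full cAMP response element TGACGTCA (1.59% of all promoters) nor the AP-1 motif TGANTCA (6.34%) was found on either strand in any of the 8 genes. TATAAA was found in 3 of the 8 genes, against 8.06% of all promoters. Gdf15 has 2 windows, and TATAAA was in 1 of them. A gene was counted if any of its windows matched, while the share of all promoters counts each window. Of the 4 genes printed, Cxcl1 and Ccl20 were called higher at 60 min, Vcam1 was called lower and Nfkbia was not called.

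At 60 min the ligand genes Cxcl1 and Ccl20, the receptor gene Ccr7, Nfkb1 and Gdf15 were higher than in both controls, and Vcam1 was lower. These 6 of 10 genes passed limma's test at an adjusted p under 0.05, 5 higher and 1 lower. Nfkb1, Ccl2 and Ptgs2 were each above background on 1 array, the one where they were highest, and so entered the test through that array alone. Across all 10793 probes above background on at least 1 array, 24.4% passed at 60 min, 13% higher and 11.4% lower. By sign, 9 of the 10 genes were higher and 1 lower, where 45% of all tested probes were higher. The median difference of the 10 genes was 0.97 on the log2 scale, against a median of -0.08 over all tested probes. This median was 0.46 without background correction and 0.41 with the authors' processed values. It was 1.73 over the 7 genes above background on at least 2 arrays. With 1 rat at 60 min, the error in this test comes from the pair of controls and from the prior that limma estimates over all probes, and the lone rat is assumed to vary as the controls do. Without the filter on dim probes no gene passed, and the adjusted p of these 6 lay between 0.0686 and 0.0871.

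**Figure D1:**
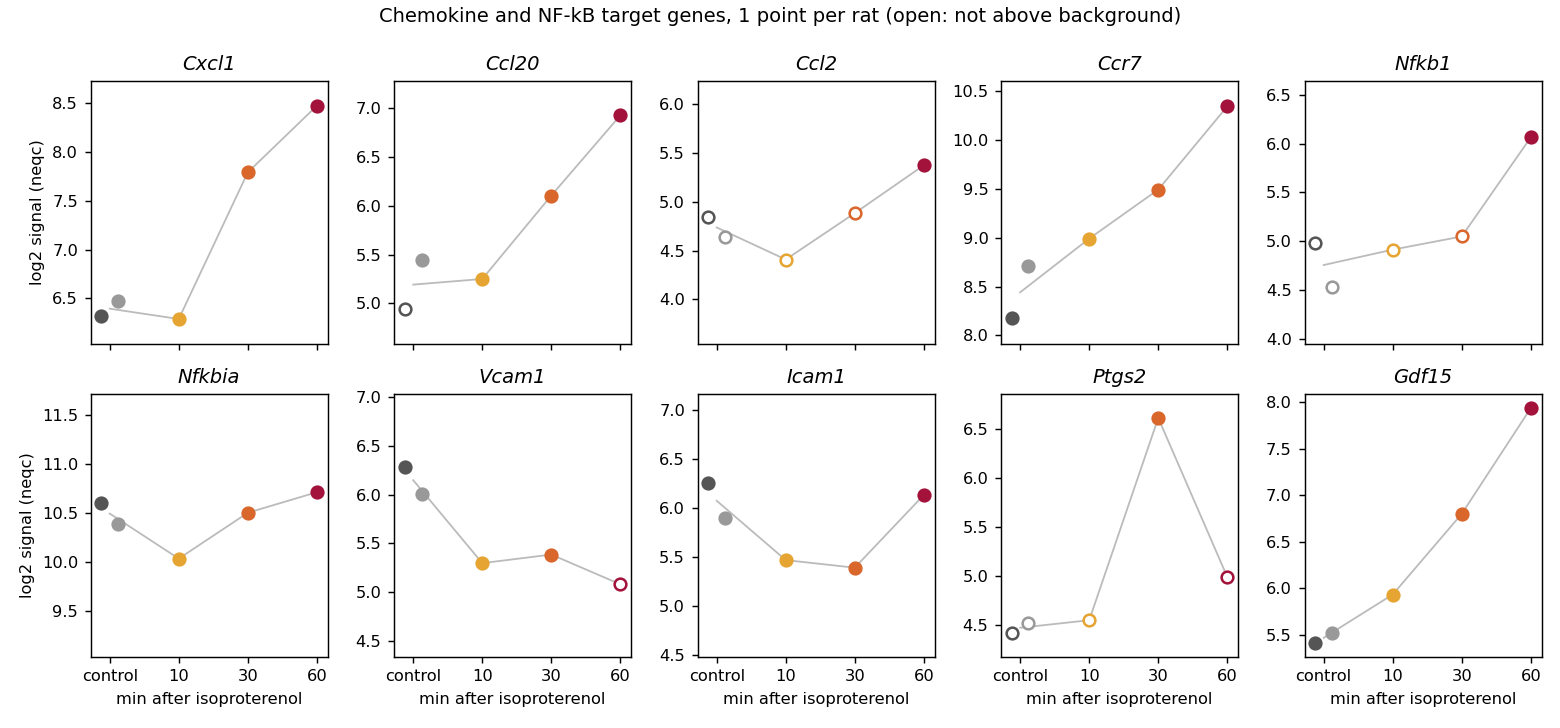
Normalized log2 signal (y axis, a separate range in each panel) of the 10 genes by group (x axis, evenly spaced categories, not to scale in time), with 1 point per rat, both controls shown and a line joining the control mean and the later rats. Filled points were above background. Cxcl1, Ccl20, Ccr7 and Gdf15 are highest at 60 min, and Ptgs2 is above background at 30 min alone.

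Cxcl1 encodes a ligand of the neutrophil receptor Cxcr2. Its intensity was 129 and 138 in controls 1 and 2, and 127, 270.3 and 403 at 10, 30 and 60 min. The 10 min rat was level with the controls, while the later rats stood far outside their range. At 60 min Cxcl1 rose 4.22-fold, a log2 difference of 2.08 ± 0.21 (SE) (adjusted p = 0.0281, limma). The difference was 2.00 against control 2 alone and 2.15 against control 1 alone. At 30 min it was already 1.39 ± 0.21 higher (adjusted p = 0.207), the 116th highest of 10793 probes. Transcripts of the receptor genes Cxcr1 and Cxcr2 were not above background on any array.

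Ccl20 encodes the ligand of Ccr6, a receptor of lymphocytes and dendritic cells. Its intensity was 79.5 and 92.7 in the controls, of which the first was not above background, and 87.2, 118 and 170 at 10, 30 and 60 min. It rose 3.32-fold at 60 min, a log2 difference of 1.73 ± 0.28 (SE) (adjusted p = 0.0287, limma). The difference was 1.48 against control 2 alone and 1.99 against control 1 alone, the latter a difference from background. The difference at 30 min was 0.91 (adjusted p = 0.217) and at 10 min 0.06. Ccr6 was not above background on any array.

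Ccl2, the monocyte attractant that acts on Ccr2, had intensities of 77.1 and 71.8 in the controls and 64.0, 78.1 and 90.4 at 10, 30 and 60 min. It was above background at 60 min alone. There it was at least 1.24-fold higher than in the controls (adjusted p = 0.0924, limma), without passing. The log2 difference was 0.74 against control 2 alone and 0.53 against control 1 alone, both differences from background and not sizes of change. Ccr2 was 0.68 higher at 60 min, also without passing (adjusted p = 0.0745).

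Ccr7, the receptor that guides T cells and mature dendritic cells toward lymphoid tissue, was above background on all 5 arrays. Its intensity was 338 and 468 in the controls and 558, 769 and 1349 at 10, 30 and 60 min. The order followed the times, and the controls lay below all 3 isoproterenol rats. At 60 min Ccr7 rose 3.74-fold, a log2 difference of 1.90 ± 0.29 (SE) (adjusted p = 0.0284, limma). The difference was 1.63 against control 2 alone and 2.17 against control 1 alone. The differences at 10 and 30 min were 0.55 (adjusted p = 0.863) and 1.05 (adjusted p = 0.208).

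Lymphocyte markers were scarce beside Ccr7. Of 8 T cell markers with a probe, 5 were not above background on any array, among them Cd4, Cd8a, Lck and Zap70. The 3 measured ones, Cd3d, Cd3e and Cd3g, were higher at 60 min without passing. Cd3d and Cd3e were above background at 60 min alone, so they entered the test through the array where they were high. There they were at least 1.35-fold and 1.04-fold higher than in the controls. Cd3g was 0.59 higher at 60 min and lay above both controls at 10 and 60 min, but was not above background at 30 min. The summed intensity of the 3 genes was 228 and 222 in the controls and 250, 217 and 281 at 10, 30 and 60 min. Of 6 B cell markers with a probe, 2 were measured, with a summed intensity of 157 and 171 in the controls and 155, 178 and 182 at 10, 30 and 60 min. The dendritic cell genes Flt3, Xcr1 and Batf3 were not above background on any array. The part of these cells in the Ccr7 difference was not tested.

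Nfkb1 encodes the p105 precursor of the p50 subunit. Its intensity was 80.6 and 68.5 in the controls and 78.8, 82.0 and 116 at 10, 30 and 60 min, and the 60 min array was the one on which it was above background. There it was at least 2.01-fold higher than in the controls (adjusted p = 0.0334, limma), a bound set by the background of the control arrays. The log2 difference was 1.54 against control 2 alone and 1.08 against control 1 alone. Nfkb1 was not above background in either control, so these 2 values are differences from background and not sizes of change. Because Nfkb1 passed the filter through the array where it was high, its call gives no support of its own, and with detection required on 2 arrays it was not tested. The call was lost with the authors' processed values (adjusted p = 0.0552). The other gene of the pair, Nfkbia, was bright on every array. Its intensity was 1603 and 1386 in the controls and 1096, 1499 and 1726 at 10, 30 and 60 min. It was 0.22 ± 0.22 (SE) higher at 60 min (adjusted p = 0.497) and 0.46 lower at 10 min (adjusted p = 0.861), so no difference was detectable for it beyond the error of the fit. At 60 min Nfkbia was 0.33 higher than control 2 and 0.11 higher than control 1.

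Ptgs2, the inducible cyclooxygenase of prostaglandin synthesis, had another time course. Its intensity was 64.4 and 68.4 in the controls, 69.2 at 10 min, 147 at 30 min and 80.5 at 60 min. The 30 min rat was the one above background, and the 60 min value lay between it and the controls. At 30 min Ptgs2 was at least 2.95-fold higher than in the controls, but it did not pass (adjusted p = 0.177, limma). It was at least 2.84-fold lower at 60 min than at 30 min, likewise without passing (adjusted p = 0.27, with an unadjusted p of 0.00116). Since Ptgs2 was not above background at 60 min or in either control, no fold is given between them. Among all other named genes, the one nearest to Ptgs2 over the 5 arrays was the early response gene Ier2, at a Euclidean distance of 0.72 on the log2 scale after centring on the controls. The next was Myl3, a myosin light chain gene of striated muscle, at 0.91. The 30 min array, on which Ptgs2 was highest, also had the highest summed intensity of muscle markers, 44105. In control 1 that sum was 42544, and Ptgs2 was not above background there. The part of muscle in the Ptgs2 value was not tested. For the other 9 genes the nearest neighbour lay closer, at 0.09 to 0.39.

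Gdf15, a distant member of the TGF-beta family made under cell stress, was higher at each later time. Its intensity was 91.9 and 95.1 in the controls and 110.3, 160.4 and 294 at 10, 30 and 60 min. All 3 isoproterenol rats lay above both controls. At 60 min Gdf15 rose 5.54-fold, a log2 difference of 2.47 ± 0.21 (SE) (adjusted p = 0.0281, limma), the 58th highest difference of 10793 probes. The difference was 2.42 against control 2 alone and 2.52 against control 1 alone. At 10 and 30 min the differences were 0.47 (adjusted p = 0.856) and 1.33 (adjusted p = 0.207). The nearest genes by pattern were Hsf4 and Slc22a7.

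**Figure D2:**
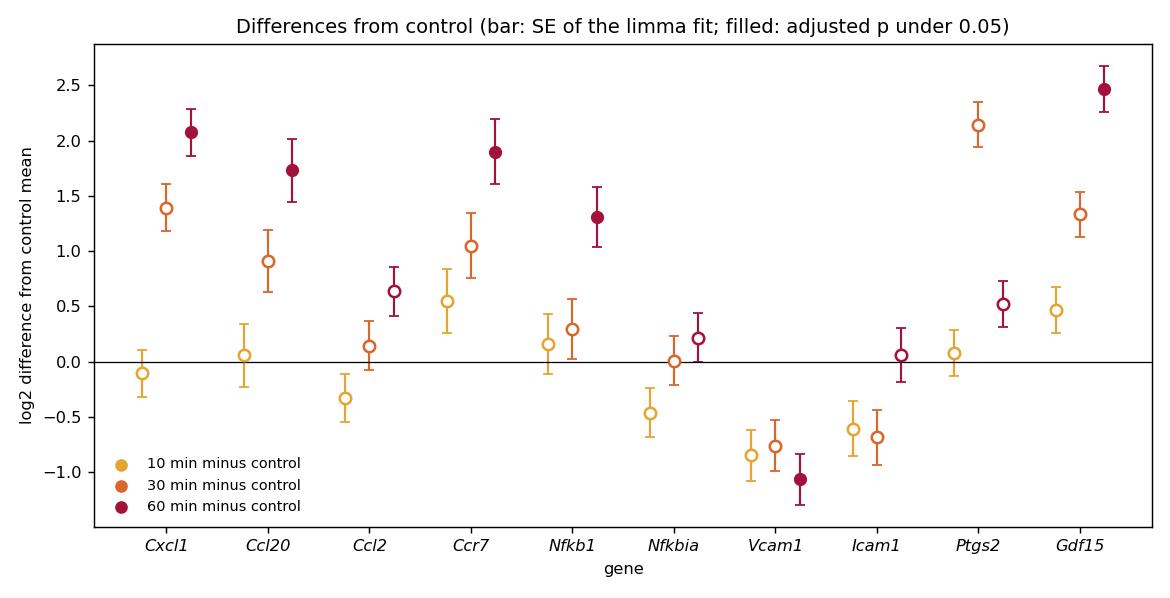
Log2 difference from the control mean (y axis) of the 10 genes (x axis) at 10, 30 and 60 min, with the standard error of the limma fit as bars and filled points for an adjusted p under 0.05. The 6 filled points are all at 60 min, 5 above 0 and Vcam1 below it.

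Of the adhesion molecule genes, Vcam1 fell at 60 min and Icam1 did not pass at any time. Vcam1, which encodes an endothelial ligand for leukocyte integrins, had intensities of 127 and 113 in the controls and 88.5, 90.9 and 82.8 at 10, 30 and 60 min. All 3 isoproterenol rats were below both controls, and at 60 min Vcam1 was not above background. It fell at least 2.05-fold there (adjusted p = 0.0359, limma). The log2 difference was -0.93 against control 2 alone and -1.20 against control 1 alone, both differences to background and not sizes of change. The bound is set against the mean of the controls. The call was lost without background correction (adjusted p = 0.0576) and with the authors' processed values (adjusted p = 0.0689). Icam1, a ligand of other leukocyte integrins, had intensities of 126 and 109 in control 1 and control 2, then 93.5, 91.1 and 119 at the successive times. It was 0.61 and 0.68 lower at 10 and 30 min, without passing (adjusted p = 0.833 and 0.235), and 0.06 higher at 60 min (adjusted p = 0.88). The 60 min rat lay between the controls, at 0.24 against control 2 alone and -0.12 against control 1 alone. Between 60 and 30 min Icam1 differed by 0.74 ± 0.29 (SE), with an adjusted p of 0.368.

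Endothelial markers were lower beside Vcam1, and so were those of several other cell types. Across all tested probes, 11.4% were called lower at 60 min, and the median difference was -0.08. Of 8 measured endothelial markers, 6 fell at 60 min and none rose, with a median of -1.28. Below both controls at 10, 30 and 60 min lay 8, 7 and 7 of them. Of 9 fibroblast markers 9, 9 and 9 did so, of 6 ductal ones 5, 6 and 6, and of 6 acinar ones 2, 2 and 2. The share of all probes that did so was not counted. The summed intensity of the endothelial markers was 6083 and 5311 in the controls and 3775, 3623 and 2666 at 10, 30 and 60 min. Plvap, of the diaphragms of fenestrated vessels, fell by 1.30 on the log2 scale and the von Willebrand factor gene Vwf at least 3.64-fold. Cdh5, Flt1 and Tek were not above background on any array. The gene nearest to Vcam1 in pattern over the 5 arrays was Icam2, another adhesion molecule of endothelium, at a distance of 0.11 on the log2 scale. The next was Pcp4, at 0.14. Fibroblast markers were lower too, with 8 of 9 measured ones past the threshold at 60 min and a median of -1.73. In a whole gland, fewer cells of a type and less RNA per cell cannot be told apart, and the part of endothelium in the Vcam1 value was not tested.

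**Figure D3:**
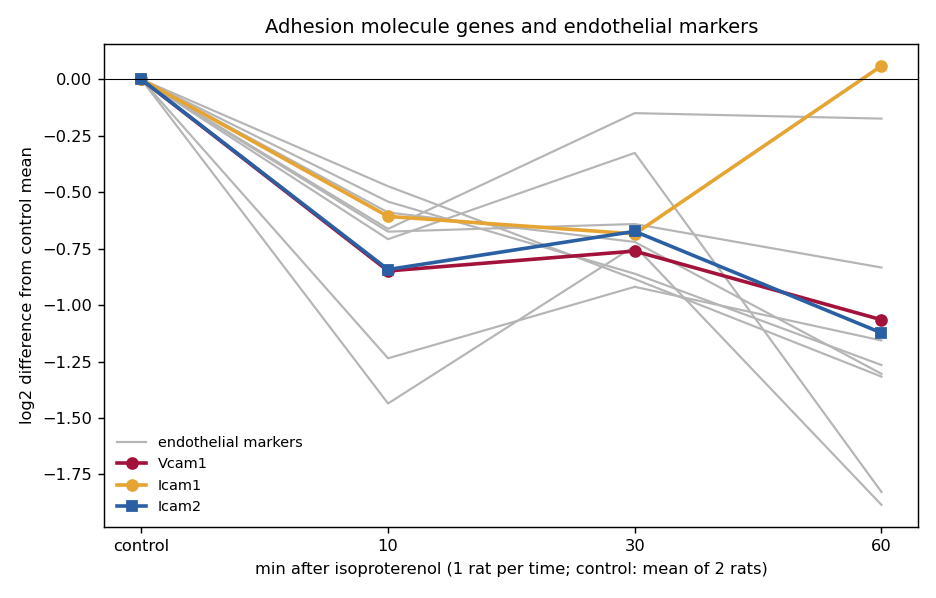
Log2 difference from the control mean (y axis) by group (x axis, evenly spaced categories) for Vcam1, Icam1, Icam2 and, in grey, 8 endothelial markers, with 1 rat per time. Vcam1 and Icam2 lie below 0 at every time, and Icam1 ends at 0.06. The 60 min point of Vcam1 (-1.06) was not above background, so its size is known as a bound alone.

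At 30 min none of the 10 genes passed, nor did any of the 10793 probes (0%), although 2139 probes had an unadjusted p under 0.05 with limma. By that looser threshold 7 of the 10 genes differed, against 19.8% of all probes: Cxcl1, Ccl20, Ccr7, Ptgs2 and Gdf15 were higher (5 genes, against 9.5% of probes) and Vcam1 and Icam1 lower (2 genes, against 10.3%). The median difference of the 10 genes was 0.60, against -0.03 over all probes. A total of 4 genes (Cxcl1, Ccr7, Ptgs2 and Gdf15) lay outside the controls at 30 min by a log2 difference of at least 1 from their mean, all 4 higher, and 6 of 10 lay that far off at 60 min, 5 of them higher. Of all probes, 6.75% did so at 30 min, 4.26% on the higher side. At 60 min 21% did, 11.9% higher and 9.06% lower. Ptgs2 at 30 min and Nfkb1 at 60 min entered these counts through the 1 array where each was above background. Their part in the counts gives no support. Since the genes were chosen with earlier results of these data known, the counts and medians beside all probes are no independent finding.

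At 10 min none of the 10 genes passed, against 0.0278% of all probes, and 1 of them, Vcam1, had an unadjusted p under 0.05, against 6.07%. The differences ran between -0.85 for Vcam1 and 0.55 for Ccr7 with a median of -0.02. By sign 5 genes were higher and 5 lower, where 54.2% of all tested probes were higher. No gene lay at least 1 from the control mean, against 2.19% of all probes. Between 60 and 30 min none of the 10 genes and none of 10793 probes (0%) passed with limma, although 1459 probes (13.5%) and 5 of the genes had an unadjusted p under 0.05. Nfkb1, Gdf15, Cxcl1 and Icam1 were higher at 60 min by that measure (4 genes, against 6.58% of probes) and Ptgs2 lower (1 gene, against 6.94%). Nfkb1 was above background at 60 min alone and Ptgs2 at 30 min alone, so their part in these counts gives no support.

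The moderated F-test over the 3 times called none of 10793 probes (0%), with 3325 probes (30.8%) and 7 of the 10 genes at an unadjusted p under 0.05. Among these 7 are Nfkb1 and Ptgs2, each tested through the 1 array where it was high. With all 3 isoproterenol rats set against the 2 controls, 0 of 10793 probes (0%) passed with limma and 1016 (9.41%) had an unadjusted p under 0.05. Among the 10 genes, 3 reached it. The log2 differences were -0.89 for Vcam1, 1.17 for Ccr7 and 1.42 for Gdf15, and limma's adjusted p was 0.472, 0.5 and 0.5.

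Other genes of the same pathways were called in both directions. Over 8 lists with 151 genes on the array, 97 were measured. Of these, 16 rose and 14 fell at 60 min, with a median of 0.01. The 30 called genes of 97 stand beside the 24.4% of all probes called, 13% higher and 11.4% lower. These shares are the baseline for each list below. Genes above background at 60 min alone entered the lists through the array where they were high.

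Among 20 other chemokine ligand genes, 2 rose and 3 fell (median 0.03). Ccl7 and Ccl19, attractants of monocytes and of Ccr7-bearing cells, were at least 1.91-fold and 1.63-fold higher. They are the 2 counted as risen, and both were above background at 60 min alone, so they entered the test through the array where they were high and their count gives no support. Cxcl12, a stromal chemokine, fell 3.30-fold, the membrane-bound ligand gene Cx3cl1 2.33-fold and Cxcl16 2.17-fold. The interferon-inducible gene Cxcl9 was 1.23 lower without passing (adjusted p = 0.0777). Among 6 other receptor genes 3 rose and none fell, with a median of 1.00. Cxcr4, which did not pass, is among the 6 and was above background at 60 min alone. Ackr3, a scavenging receptor for Cxcl12, rose 4.24-fold, Ccr9 3.42-fold and Ccr3 2.48-fold. Ccr9 was not above background in control 1.

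Of 13 other genes of NF-kB subunits, inhibitors and kinases, 1 rose and 2 fell (median 0.12). Irak1, a kinase downstream of interleukin-1 and Toll-like receptors, rose 3.74-fold, while Ripk1 and Tab2, which link receptors to the kinase complex, fell 2.13-fold and 1.91-fold. Rela, the main partner of p50, was 0.22 higher (adjusted p = 0.49) and Nfkb2 0.81 higher (adjusted p = 0.0561). Among 16 genes of NF-kB feedback and cell survival, 3 rose and 1 fell (median 0.24). The antioxidant enzyme gene Sod2 rose 2.07-fold, Birc2, which encodes a ubiquitin ligase of the pathway, 2.06-fold, and the RNase gene Zc3h12a, above background at 60 min alone, at least 1.43-fold. Tnfaip8 fell at least 2.27-fold. Ier3, an early response gene, was 1.24 higher at 30 min (adjusted p = 0.207) and differed by -0.04 at 60 min.

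Of 10 cytokine and acute mediator genes measured, 4 fell and 1 rose, with a median of -0.55. Il15 fell 3.39-fold, the alarmin gene Il33 3.07-fold, the siderophore-binding gene Lcn2 2.92-fold and the macrophage growth factor gene Csf1 2.24-fold. The transcription factor gene Cebpb rose 2.22-fold. Tnf and Il6 were not above background on any array, and Il1b differed by 0.41 (adjusted p = 0.3). Among macrophage and dendritic markers, 2 of 7 measured (Aif1 and Fcer1g) fell and none rose, beside 11.4% of all probes called lower. The median was -0.78, the value of Adgre1. Adgre1, Cd163 and Mrc1 were above background in control arrays alone, so they entered the test through the arrays where they were high. The summed intensity of the 7 markers was 1859 and 1482 in the controls and 1188, 1128 and 1011 at 10, 30 and 60 min. Their part in the cytokine values was not tested.

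Of 10 other adhesion molecule genes, 3 fell and none rose (median -0.30). They were Vwf, which is also among the endothelial markers, Icam2 (2.18-fold) and the junction gene Jam3 (2.04-fold). The selectin gene Sele differed by 0.23 (adjusted p = 0.545). Among 7 genes of prostaglandin synthesis and response, 2 rose and 1 fell (median 0.13). The phospholipase gene Pla2g4a, whose product frees arachidonic acid, rose 2.15-fold, and the prostaglandin transporter gene Slco2a1 at least 2.13-fold. The secreted phospholipase gene Pla2g2a fell 4.19-fold. The synthase gene Ptges and the receptor genes Ptger2, Ptger3 and Ptger4 were not above background on any array.

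Of 15 stress genes set beside Gdf15, 4 rose and none fell, with a median of -0.02. Ppp1r15a, whose product ends the block of translation in the stress response, rose 3.21-fold. Atf3, a transcription factor of the same response, rose at least 2.18-fold, Fgf21, another stress hormone gene, 2.18-fold and Atf4, its central transcription factor, 1.96-fold. Chac1 was 0.95 higher without passing (adjusted p = 0.0921), and Ddit3, Trib3, Asns and Mdm2 were 0.04 to 0.36 lower, none past the threshold.

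**Figure D4:**
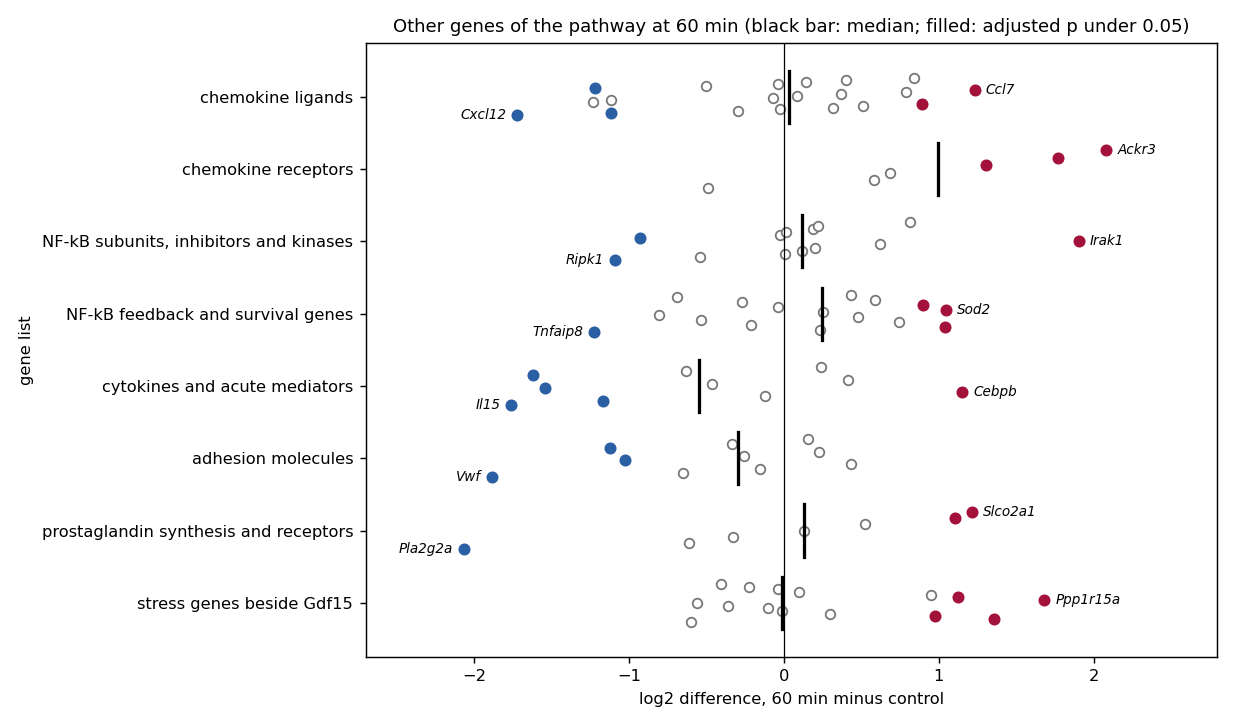
Log2 difference at 60 min minus the control mean (x axis) for each measured gene of 8 pathway lists (y axis, with vertical jitter), with filled points for an adjusted p under 0.05 and a black bar for the median. The medians lie between -0.55 for cytokines and acute mediators and 1.00 for chemokine receptors.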

How the data were processed

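Per the labels' protocols, 500 ng of RNA was amplified and labelled with biotin. The authors deposited 22517 probes, each with a linear intensity and its detection p-value. The sorted intensity columns differed by a median of 0.133%, so they had been brought to common quantiles before deposit. A second deposited table of log2 values has the same rank order, and its transform is not given in the sources used here.

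Intensities were corrected by normexp from the detection p-values (offset 16), brought to common quantiles and converted to log2 (neqc, limma 3.58.1, R 4.3.3). Probes with a detection p under 0.01 on at least 1 array were tested (10793). lmFit and eBayes fitted 1 mean for every group (1 residual and 3.88 prior degrees of freedom), with two-sided tests and Benjamini-Hochberg adjustment over all tested probes at 0.05. The fit was tested on simulated data. A fold "at least" sets the brighter mean against the lowest signal above background on the dim arrays. Fold changes of dim probes depend on the offset.

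Symbols followed the platform annotation, updated by Entrez identifier (13747 matched GRCr8). A gene with several probes was read from its brightest. The members and lists were chosen with earlier results of these data known. All 10 members are named. Of each list, up to 4 genes per direction are named by size, among those past the threshold or at least 1 from the controls, and genes given as not passing or as not above background beyond these were picked with their values known. Promoters came from RefSeq, with no windows there for Ccl2 and Ccr7. Alternatives changed the offset, background correction, scaling, filter, prior variance and controls.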

Additional observations from a re-analysis of the deposited data

How the results depend on the processing

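Few arrays (1 rat per time) limit precision, and for dim probes so does the signal over background. The 6 calls at 60 min became 0 of 10 without the filter on dim probes, where 0 of 22517 probes passed. They became 5 of 7 tested genes with detection on 2 arrays, where 2503 of all probes passed. There were 5 calls without background correction and 4 from the authors' processed table, where 2888 and 2788 of all probes passed, against 2634 in the fit reported. There were 6 under an offset of 50, median scaling, detection p under 0.05, or a robust or trended prior variance. Of all probes, 2277 (median scaling) to 2981 (trended prior variance) passed there. The counts at 30 and 10 min and between 60 and 30 min stayed at 0 under these settings. The F-test over times called 2 of 10 genes without background correction and 2 of 10 with a trended prior variance, where 167 and 135 of all probes passed, against 0 genes and 0 probes in the fit reported. With 2 groups of rats, leaving out each control or isoproterenol rat in turn gave 0 calls each time.

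No call at 60 min changed its direction under these settings, and 9 calls were lost: all 6 without the filter, Vcam1 without background correction, and Nfkb1 and Vcam1 with the authors' values. Leaving out a control leaves no residual degrees of freedom for a test by time. The genes at least 1 from control at 60 min were then 5 without control 1 and 6 without control 2. Of all 10793 probes, 1950 and 2701 lay that far off. Without background correction 3 genes did, with 1130 of all probes against 2267 in the fit reported. In that setting the difference of Ptgs2 at 30 min was 1.15 rather than 2.15. That of Nfkb1 at 60 min was 0.64 rather than 1.31, that of Ccl20 0.99 rather than 1.73 and that of Vcam1 -0.54 rather than -1.06. No paired analysis was possible because the labels pair no rats across groups and each time has 1 rat.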
